A study of Mus musculus with 60 samples.

Results

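The Kcn genes encode the potassium channels of the mouse and the subunits that assemble with them. All protein-coding genes with a symbol that starts with Kcn were taken from the RefSeq gene table of assembly GRCm38.p6, which gave 94 of 21887 genes. They comprise 40 voltage-gated pore subunits (Kcna, Kcnb, Kcnc, Kcnd, Kcnf, Kcng, Kcnh, Kcnq, Kcns and Kcnv), 15 inward rectifiers (Kcnj), 14 tandem-pore channels (Kcnk), 8 calcium- or sodium-activated pores (Kcnma, Kcnn, Kcnt and Kcnu) and 17 accessory subunits or regulators (Kcnab, Kcne, Kcnip, Kcnmb and Kcnrg). Symbols chose the members, and no measured value was used. The window of a gene was its body and 10 kb on either side.

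The chromatin of L4-L6 dorsal root ganglia (DRG), which hold the cell bodies of the sensory neurons of the sciatic nerve together with satellite glia, Schwann cells and other cells, was profiled 24 h after surgery in C57BL/6 mice of 6-8 weeks. In SNA the sciatic nerve was cut (sciatic nerve axotomy), and in Sham it received sham surgery. In DCA the dorsal column of the spinal cord was cut (dorsal column axotomy), and Lam was a laminectomy with no cut axons. SNA cuts the peripheral branch of these neurons and DCA the central branch, so SNA was set against Sham and DCA against Lam, and Lam against Sham gave the difference between surgeries without axotomy. For each surgery 1 pooled peak list was deposited for H3K9ac and H3K27ac, which mark active promoters and enhancers, for H3K27me3, which marks repressed chromatin, and for ATAC-seq, which marks open chromatin. A ChIP list pooled 2 samples, each from 10 mice, and an ATAC list pooled 3 samples of 1 mouse each, so no value has a replicate error and no difference could be tested between surgeries.

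Potassium channels set the resting potential of sensory neurons and end their action potentials. Low-threshold voltage-gated channels hold firing in check, inactivating A-type channels delay it, and the M-current channels and tandem-pore leak channels lower excitability at rest, while an inward rectifier in satellite glia takes up the potassium that active neurons release. Reduced potassium current and reduced potassium channel expression are well known in DRG neurons after peripheral nerve injury.

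The lists held 50332, 74652, 50667 and 89647 H3K9ac peaks in the order Sham, SNA, Lam, DCA, which all groups of values below follow. There were 43803, 75824, 67311 and 46489 H3K27ac peaks, between 90011 and 154055 H3K27me3 peaks and between 153556 and 174605 ATAC peaks. At q of at most 0.05, a limit on the authors' adjusted p of a peak, between 56.1% and 99.5% of the H3K9ac and H3K27ac peaks and between 77.8% and 91.3% of the ATAC peaks stayed, but at most 1.31% of the H3K27me3 peaks. The marker genes of the tissue did not carry the marks evenly. Of 8 satellite glia and Schwann cell markers, 7 had an H3K9ac peak within 1 kb of their start site in each list, against 1, 1, 2 and 2 of 8 sensory neuron markers. The neuronal genes Isl1 and Nefh had no acetylation peak in any of the 8 acetylation lists, although 7, 8, 8 and 8 of the 8 neuronal markers were open at the start site. Macrophage markers had a start-site H3K9ac peak at 0, 0, 0 and 1 of 6 genes, fibroblast and vessel markers at 3, 4, 3 and 3 of 5, markers of the central nervous system at 1, 1, 0 and 1 of 4, and 3 genes of other tissues had no acetylation peak. In such bulk tissue, fewer cells with a mark and less of the mark per cell cannot be told apart.

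The start sites of 7 members illustrate the states in which the family was found. The bases are the 250 before the start site, from the RefSeq promoter table of GRCm38.p6, written 5′ to 3′ on the gene's strand, and capitals mark CpG dinucleotides. They lie outside every gene of the table. Kcnk5, an acid-sensitive leak channel, was acetylated and open in all 4 lists of H3K9ac and ATAC (chr14:20181783-20182032, minus strand).
Kcnk5: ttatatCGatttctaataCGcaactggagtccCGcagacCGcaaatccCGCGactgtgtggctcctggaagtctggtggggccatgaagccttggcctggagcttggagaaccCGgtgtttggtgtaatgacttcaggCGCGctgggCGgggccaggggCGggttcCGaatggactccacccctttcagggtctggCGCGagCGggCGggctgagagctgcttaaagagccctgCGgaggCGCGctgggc
Kcnj10, the inward rectifier of satellite glia, was open in all lists and had an H3K9ac peak in SNA, Lam and DCA (chr1:172340960-172341209, plus strand).
Kcnj10: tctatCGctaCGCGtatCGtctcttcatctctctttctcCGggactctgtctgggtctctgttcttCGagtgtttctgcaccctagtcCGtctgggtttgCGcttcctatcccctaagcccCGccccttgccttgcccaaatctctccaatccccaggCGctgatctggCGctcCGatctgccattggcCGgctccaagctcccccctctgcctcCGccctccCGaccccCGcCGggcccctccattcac
Kcna3, a Shaker-type subunit best known from lymphocytes, was open in all lists and had an H3K9ac peak in DCA alone (chr3:107035912-107036161, plus strand).
Kcna3: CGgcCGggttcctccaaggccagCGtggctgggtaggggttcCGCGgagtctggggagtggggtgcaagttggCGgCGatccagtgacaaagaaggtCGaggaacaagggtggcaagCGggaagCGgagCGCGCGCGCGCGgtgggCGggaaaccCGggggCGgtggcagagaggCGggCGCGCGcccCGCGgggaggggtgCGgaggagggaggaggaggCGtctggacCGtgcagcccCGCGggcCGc
Kcna4, an A-type subunit of small sensory neurons, had an H3K9ac peak in both axotomy lists and in neither control list (chr2:107290339-107290588, plus strand).
Kcna4: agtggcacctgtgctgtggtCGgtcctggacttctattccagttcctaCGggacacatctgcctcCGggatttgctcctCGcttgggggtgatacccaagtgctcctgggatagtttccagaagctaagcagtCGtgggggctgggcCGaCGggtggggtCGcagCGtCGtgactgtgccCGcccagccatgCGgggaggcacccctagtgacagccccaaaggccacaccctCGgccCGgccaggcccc
Kcnd2, another A-type subunit, was open in all lists and never acetylated (chr6:21215096-21215345, plus strand).
Kcnd2: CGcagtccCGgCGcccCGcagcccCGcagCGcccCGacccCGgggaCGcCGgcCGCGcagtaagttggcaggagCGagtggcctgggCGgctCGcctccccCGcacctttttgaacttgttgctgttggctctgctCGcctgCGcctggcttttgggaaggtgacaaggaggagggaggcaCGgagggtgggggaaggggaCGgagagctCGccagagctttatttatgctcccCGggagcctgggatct
Kcnk18, a leak channel of sensory neurons, shared that state with few CpG (chr19:59219398-59219647, plus strand).
Kcnk18: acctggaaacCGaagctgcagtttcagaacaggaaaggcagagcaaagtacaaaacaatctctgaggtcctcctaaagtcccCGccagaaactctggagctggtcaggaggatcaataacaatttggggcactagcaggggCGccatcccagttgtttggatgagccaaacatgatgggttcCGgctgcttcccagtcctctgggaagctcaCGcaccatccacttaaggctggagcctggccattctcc
Kcnip3, a calcium-binding partner of the A-type channels, is shown for a match to the AP-1 motif TGANTCA, here alone in capitals, which begins 122 bases before its start site (chr2:127522095-127522344, minus strand).
Kcnip3: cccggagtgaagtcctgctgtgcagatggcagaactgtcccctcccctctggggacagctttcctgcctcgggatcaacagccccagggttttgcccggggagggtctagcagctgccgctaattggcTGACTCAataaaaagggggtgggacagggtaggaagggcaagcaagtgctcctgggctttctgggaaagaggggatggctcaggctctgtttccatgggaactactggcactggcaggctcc
The numbers of CpG in these stretches were 19 in Kcnk5, 17 in Kcnj10, 31 in Kcna3, 14 in Kcna4, 22 in Kcnd2, 5 in Kcnk18 and 4 in Kcnip3.

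The promoter table matched 69 of the 94 members with 94 promoters of 300 bases (250 before and 50 after the start), and 17492 of all genes with 21263 promoters. The median Kcn promoter held 9 CpG, against 13 over all promoters. Among all genes the number separated the acetylated promoters (start site with a peak in all 4 lists of an acetylation mark, median 21) from those never acetylated (median 3). In the Kcn family the medians were 12 and 9. Promoters of Kcn genes whose start was never acetylated held 58.0% G and C in the median, against 47.0% over all such genes. On both strands, AP-1 (TGANTCA) matched 4 Kcn promoters, those of Kcne3, Kcnip3, Kcnip4 and Kcnk2, which is 4.26% of them against 6.99% of all. TATAAA matched 5 (5.32% against 12.6%), in Kcnab1, Kcnj9, Kcnj13, Kcnj15 and Kcnj16. The cAMP response element TGACGTCA matched none (2.23% of all). The RE1 motif of the repressor REST, searched as an exact string, matched no Kcn promoter and only 10 of all promoters (0.05%). A string this rare cannot show whether Kcn promoters lack REST sites.

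Kcn windows were thinly acetylated and open. Per 100 kb of window, averaged over the 4 lists, they held 1.92 H3K9ac peaks, against 4.43 in the windows of all genes, and 1.89 H3K27ac peaks against 3.75. ATAC peaks stood at 8.98 against 8.84 and H3K27me3 peaks at 6.59 against 4.66. The median member was 32.7 kb long, against 17.2 kb over all genes, and lengths ran from 1.4 to 1135.6 kb. Acetylation was densest at the tandem-pore channels, with 6.80 H3K9ac and 6.53 H3K27ac peaks per 100 kb, followed by the inward rectifiers with 3.06 and 3.39. Accessory genes held 1.49 and 1.25, voltage-gated pores 1.35 and 1.41, and calcium- or sodium-activated pores 1.09 and 1.04. Within the voltage-gated pores the Shaker-type Kcna genes stood at 8.50 and 8.94, while the A-type Kcnd genes stood at 0.308 and 0.216 and the fast Shaw-type Kcnc genes at 0.349 and 0.488.

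**Figure D1:**
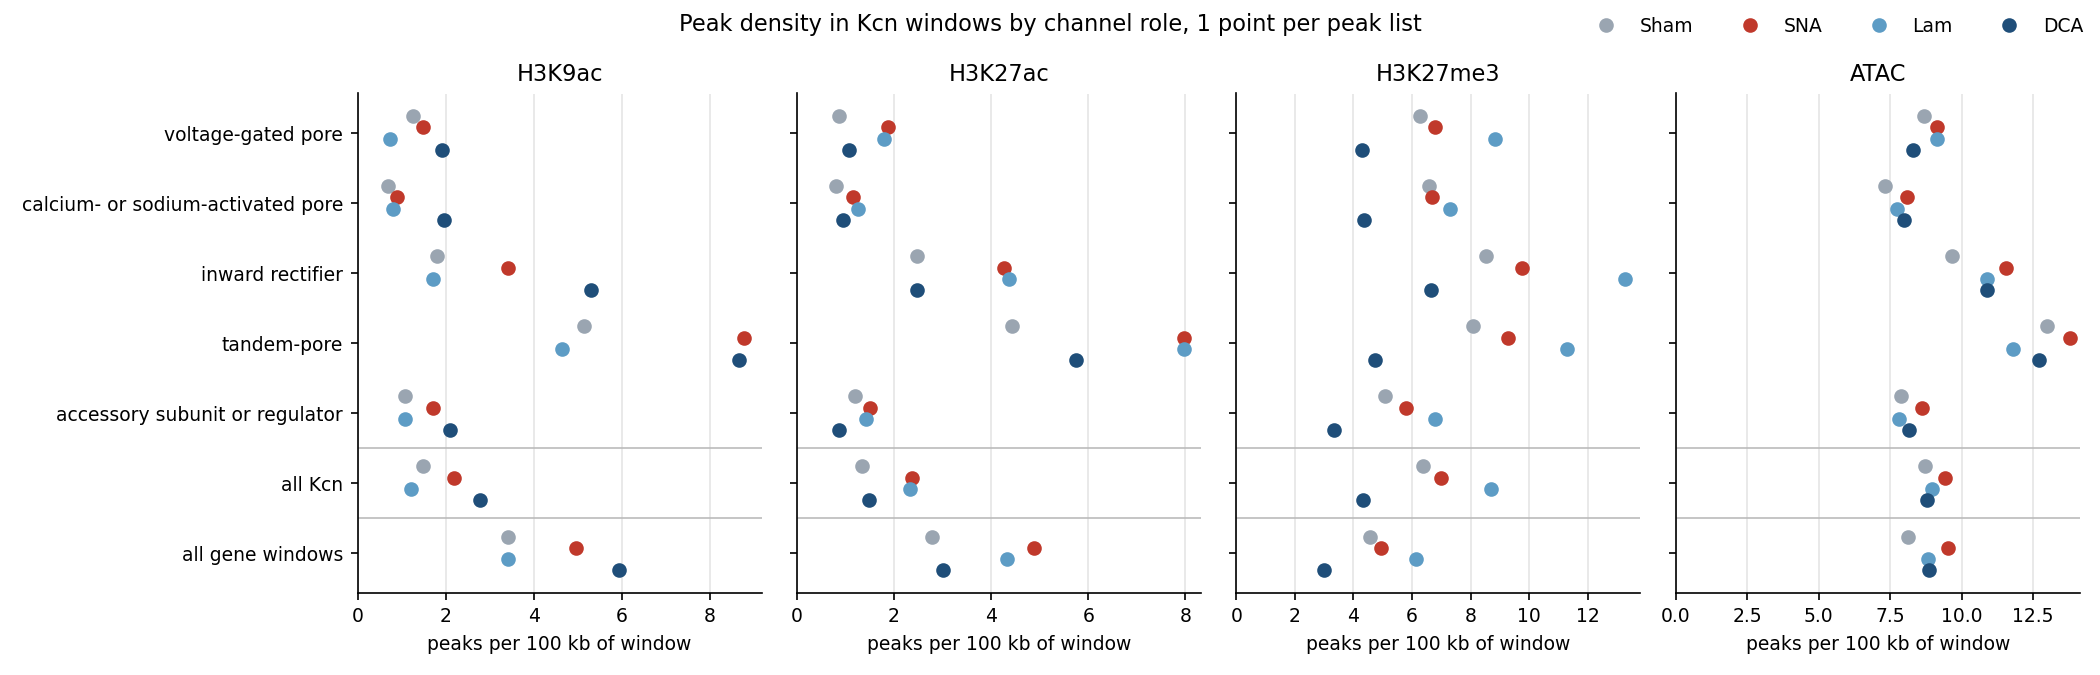
Peaks per 100 kb of window (horizontal axes) for the 5 role groups, all 94 Kcn genes and all gene windows, in 1 panel per assay; each point is 1 pooled list. The tandem-pore channels lie highest for H3K9ac and H3K27ac, and the Kcn family as a whole lies below all gene windows for both acetylation marks, above them for H3K27me3 and near them for ATAC.

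No acetylation peak was found in any of the 8 acetylation lists in the windows of 16 members (17.0%, against 25.9% of all genes). They include the A-type subunit Kcnd2 and its partner Kcnip4, the M-current subunit Kcnq3, the sodium-activated Kcnt2, the G-protein-gated Kcnj3 and Kcnj5, the leak channel Kcnk9, and the modifier subunits Kcns2, Kcns3, Kcnv1 and Kcng1, which do not form channels alone. At the other end, 35 members (37.2%, against 49.4%) had an acetylation peak in all 8. Another protein-coding gene lay in the window of 43 members, so peaks there cannot be assigned to the channel alone, and Kcnip1 and Kcnmb1 share a window. The windows of the other 51 held no second protein-coding gene.

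At the start sites themselves, 73 members (77.7%) had an ATAC peak within 1 kb in all 4 lists, against 62.1% of all genes. For 25 members without an entry in the promoter table both gene ends were used. A start site acetylated in all 4 lists of a mark was found for 18 members (19.2%, against 46.5%), and all 18 were open in all 4 lists. They were the voltage-gated Kcna1, Kcna2, Kcna6, Kcnh2 and Kcnh8, the tandem-pore Kcnk1, Kcnk4, Kcnk5, Kcnk6, Kcnk7 and Kcnk13, the calcium-activated Kcnn1 and Kcnn3, the inward rectifier Kcnj2, and the accessory Kcnab2, Kcnab3, Kcnip3 and Kcnmb4. Another 37 (39.4%, against 16.6%) were acetylated in some lists.

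The remaining 39 start sites were never acetylated (41.5%, against 36.9%), and 28 of these were open in all 4 ATAC lists, which is 29.8% of the family against 5.83% of all genes. The open and never acetylated group held 18 of the 40 voltage-gated pores, 4 of 14 tandem-pore channels, 3 of 15 inward rectifiers, 2 of 17 accessory genes and 1 of 8 calcium- or sodium-activated pores. Among them were the M-current subunit Kcnq3, the A-type Kcnd2 and Kcnc4, the delayed rectifier Kcnb2, the modifiers Kcns3 and Kcnv1, the leak channel Kcnk18 and the sodium-activated Kcnt2. Another 7 were open in some lists. Only 4 (4.26%, against 21.5%) had neither an acetylation nor an ATAC peak at the start in any list, namely Kcnj12, Kcnj13, Kcnj15 and Kcne1l. The sensory neuron markers above were likewise mostly open without a start-site H3K9ac peak, while the glial markers mostly carried one, and the part of cell composition in the Kcn states was not tested.

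**Figure D2:**
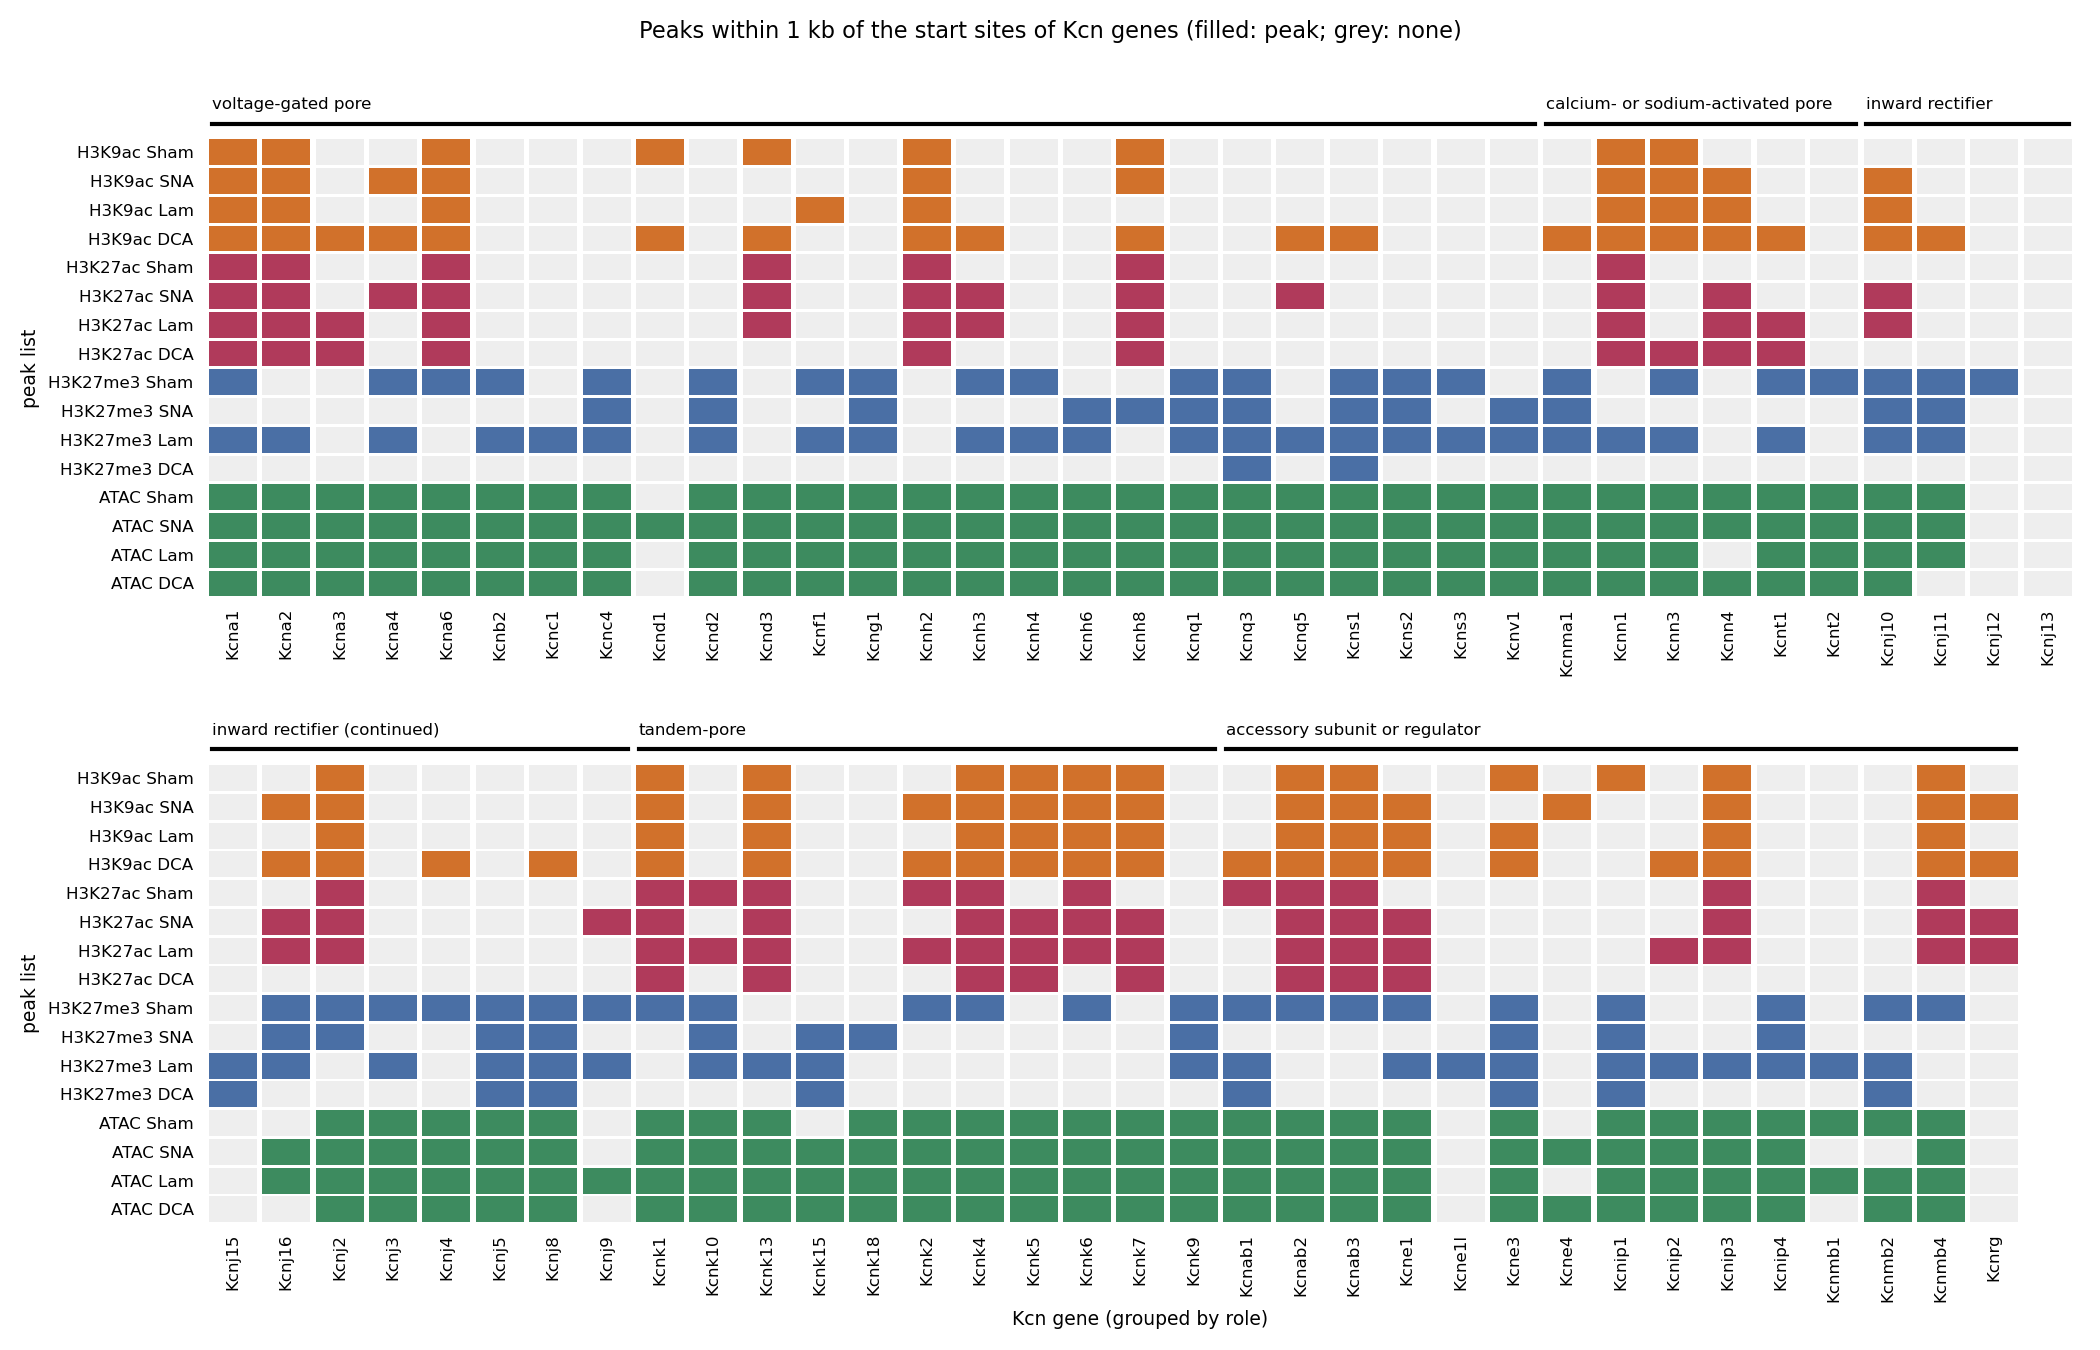
Presence of a peak within 1 kb of the start site (filled) for 69 of the 94 Kcn genes, those named in the text (columns, grouped by role), in each of the 16 lists (rows). Of these 69, ATAC is filled for 55 in all 4 lists, and the H3K9ac row of DCA holds 39 against 22 to 26 in the other H3K9ac rows.

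The first comparison concerned H3K9ac after the central injury. Kcn windows held 186, 274, 152 and 349 H3K9ac peaks, and the DCA list had the most. As a share of its list this was 0.370%, 0.367%, 0.300% and 0.389%. The log2 ratio of the shares in DCA over Lam was 0.38 (95% interval 0.10 to 0.65, from the peak counts and covering counting error only), while for the windows of all genes it was −0.03. For SNA over Sham it was −0.01 (−0.28 to 0.26; all genes −0.03), and for Lam over Sham −0.30 (−0.61 to 0.01; all genes −0.00). The Lam share was thus the lowest of the 4, and those of Sham, SNA and DCA lay closer together. With peaks of −log10 q of at least 5 only, the DCA over Lam ratio was 1.08 (0.26 to 1.89), from 165 peaks against 13. No ratio for all genes was computed at that limit.

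Members had more H3K9ac peaks in DCA than in Lam in 57 cases and fewer in 2, and 60.6% with more compares with 47.6% of all genes. A gene was called higher where its number of peaks plus 1 was at least 2 times that in the control and the difference at least 3 peaks. By this rule 21 members were called higher and 0 lower in DCA, where 14.4% of all genes were called higher and 0.274% lower. In SNA over Sham 5 were called higher and 0 lower (all genes 6.54% and 0.292%), namely Kcnj10, Kcnk13, Kcnrg, Kcnab1 and Kcnk1. In Lam over Sham, 2 were higher and 4 lower (2.73% and 3.03%). When each H3K9ac list was reduced to the same number of strongest peaks, 4 of the 21 calls in DCA were left, Kcnj12, Kcnh3, Kcnh4 and Kcnn3. Of the 5 in SNA only Kcnj10 was left. The share of all genes called was not computed for the reduced lists, so these numbers have no background.

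The difference lay in part at start sites. H3K9ac start-site peaks were found at 26, 28, 24 and 50 of the 94 members (27.7%, 29.8%, 25.5% and 53.2%), where all genes stood at 50.1%, 51.5%, 51.1% and 59.9%. Among the 69 members with an entry in the promoter table the shares were 29.0%, 33.3%, 27.5% and 52.2%. In DCA and not in Lam there were 27 members (all genes 9.43%), and in Lam and not in DCA 1, the modifier subunit Kcnf1 (all genes 0.571%). Of the members without a peak in Lam, 38.6% had one in DCA, against 19.3% of all such genes. Voltage-gated pores made up 15 of the 27, among them Kcna3, Kcna4, Kcnd3, Kcnh8, Kcnq5 and Kcns1. The peaks were moderate in strength, with a −log10 p of 2.98 to 17.84 (median 6.21) and a median fold enrichment of 3.03, both the authors' values. Fold and −log10 p are relative to each list's own background and depth, so they rank peaks within a list and set no level between lists. The 23 members with a peak in both lists had a median −log10 p of 13.04 and a median fold of 4.6 in DCA. Of the 27, 20 were open in all ATAC lists, 7 also had the peak in Sham and 6 had an H3K27ac peak in DCA. With lists of equal length the number was 12 (12.8%, against 6.48% of all genes).

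In SNA and not in Sham, an H3K9ac start-site peak was found at 8 members, Kcna4, Kcne1, Kcne4, Kcnj10, Kcnj16, Kcnk2, Kcnn4 and Kcnrg (all genes 5.19%), and in Sham and not in SNA at 6 (3.84%). Between the controls, 6 had it in Lam and not in Sham (5.32%) and 8 in Sham and not in Lam (4.36%). Kcna4, Kcnj16, Kcnk2 and Kcnrg had the peak in both axotomy lists and in neither control list, 4.26% of the family against 1.40% of all genes. At Kcnj16 and Kcnk2 the SNA and DCA peaks lay at different start sites. The axotomy lists were also the longer H3K9ac lists, and with lists of equal length only Kcnk2 and Kcnrg kept the pattern.

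**Figure D3:**
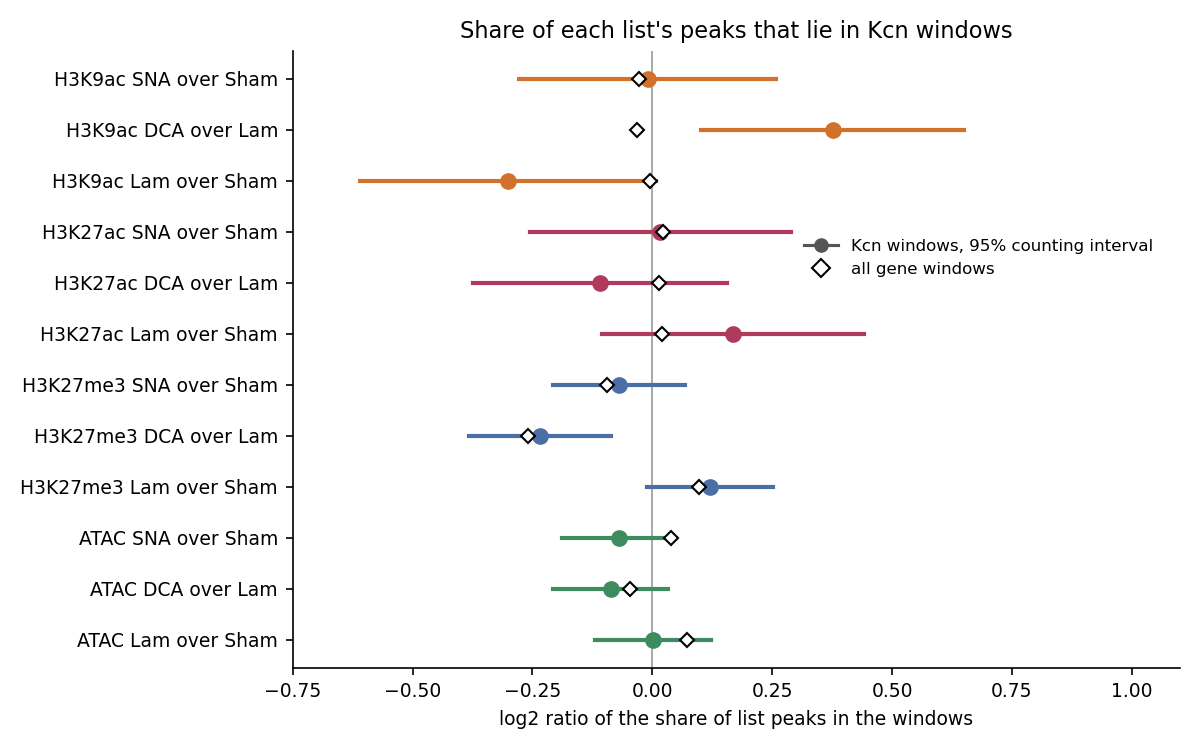
The log2 ratio of the share of list peaks in Kcn windows (circles, with 95% counting intervals) and in all gene windows (diamonds) for the 12 comparisons. For H3K9ac in DCA over Lam the interval, 0.10 to 0.65, lies above the value for all genes of −0.03, while the H3K27me3 shift in DCA over Lam, −0.23, lies beside that of all genes, −0.26.

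H3K27ac took another course. Kcn windows held 169, 296, 292 and 187 H3K27ac peaks, and SNA and Lam were the lists with more. Relative to the lists the log2 ratios were 0.02 in SNA over Sham (−0.26 to 0.29; all genes 0.02), −0.11 in DCA over Lam (−0.37 to 0.16; all genes 0.01) and 0.17 in Lam over Sham (−0.10 to 0.44; all genes 0.02). In SNA 16 members were called higher and 1 lower (all genes 12.7% and 1.04%). In DCA 0 were called higher and 8 lower (0.402% and 6.53%), and in Lam over Sham 14 were higher and 1 lower (8.47% and 0.429%). Of the 16 calls in SNA, 8 were voltage-gated pores and 4 tandem-pore channels. With lists of equal length 3 of the 16 were left, Kcna1, Kcna2 and Kcnh8, and the share of all genes called was not computed. H3K27ac start-site peaks stood at 21, 31, 32 and 21 members, while all genes stood at 40.4%, 51.6%, 51.3% and 43.3%. There were 14 in SNA and not in Sham (all genes 13.6%) and 4 the other way (2.39%). In Lam and not in DCA there were 14 (10.4%), which is 43.8% of the members with a peak in Lam against 20.2% of all such genes, and 3 the other way (2.4%). In Lam and not in Sham there were 13 (13.0%), and 2 the other way (2.13%). Kcnk2 and Kcnk10 had a start-site H3K27ac peak in both control lists and in neither axotomy list, a pattern found at 0.67% of all genes.

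H3K27me3 was called over Kcn genes often but weakly. The windows held 798, 876, 1087 and 540 peaks, of which 3, 1, 5 and 0 passed q of at most 0.05. The log2 ratios of the shares were −0.07 in SNA over Sham (−0.21 to 0.07; all genes −0.10), −0.23 in DCA over Lam (−0.38 to −0.09; all genes −0.26) and 0.12 in Lam over Sham (−0.01 to 0.25; all genes 0.10), so the family's share followed that of all genes. In DCA 0 members were called higher and 44 lower (all genes 1.04% and 26.6%), in SNA 4 higher and 12 lower (5.72% and 6.3%), and in Lam over Sham 12 higher and 2 lower (12.2% and 2.37%). Start-site peaks were found at 60, 35, 63 and 13 members (63.8%, 37.2%, 67.0% and 13.8%), against 22.2%, 16.9%, 25.1% and 8.46% of all genes. Their median −log10 p was 0.86, 0.79, 0.78 and 0.75, their median fold between 1.08 and 1.2, and none passed q of at most 0.05. In Sham and not in SNA there were 32 (all genes 12.1%) and 7 the other way (6.84%), in Lam and not in DCA 50 (19.2%) and 0 the other way (2.51%), and in Lam and not in Sham 19 (11.2%) and 16 the other way (8.21%). Of the 60 in Sham, 53.3% had none in SNA, beside 54.7% of all such genes, and of the 63 in Lam 79.4% had none in DCA, beside 76.3%.

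By number of peaks in Kcn windows, open chromatin differed least between surgeries. Positions differed more, and 57.3% of these ATAC peaks in SNA had no overlapping peak in Sham (59.6% of the whole list). In DCA 55.3% had none in Lam (57.9%). Kcn windows held 1091, 1182, 1125 and 1101 ATAC peaks, and the log2 ratios of the shares were −0.07 (−0.19 to 0.05; all genes 0.04) in SNA over Sham, −0.09 (−0.21 to 0.03; all genes −0.05) in DCA over Lam and 0.00 (−0.12 to 0.12; all genes 0.07) in Lam over Sham. Calls were 3 higher and 2 lower in SNA (all genes 5.3% and 1.51%), 2 and 3 in DCA (3.09% and 2.29%), and 3 and 4 in Lam over Sham (4.08% and 2.32%). Start-site ATAC peaks were found at 77, 83, 83 and 81 members. In SNA and not in Sham there were 8 (all genes 5.17%) and 2 the other way (3.23%), in DCA and not in Lam 4 (4.6%) and 6 the other way (3.5%), and in Lam and not in Sham 7 (4.38%) and 1 the other way (4.17%). The 3 called higher in SNA were Kcnj8, Kcnj9 and Kcnk15, and the 2 called lower Kcnq5 and Kcnt2.

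Among the voltage-gated pores, the Shaker-type Kcna1, Kcna2 and Kcna6 had a peak within 1 kb of the start site (for Kcna1, of a gene end) in every H3K9ac and H3K27ac list. Kcna1 and Kcna2 encode the low-threshold subunits that line the axon beside the nodes of myelinated fibres. Kcna2 (chr3:107090883-107115005) had 5, 18, 16 and 7 H3K27ac peaks and 11, 14, 6 and 12 H3K9ac peaks. The H3K27ac counts in SNA and Lam thus stood above those in Sham and DCA, as the list sizes did, while H3K9ac was lowest in Lam. Its start site carried an H3K27ac peak in each list, with a fold enrichment of 4.40, 9.36, 7.79 and 5.54. The strongest H3K27ac peak of SNA without a counterpart in Sham among all Kcn windows lay in this gene (chr3:107096931-107097339, 4.23 kb from the start site, fold 6.70, −log10 p 15.5) and was also present in Lam. ATAC peaks at Kcna2 numbered 6, 4, 3 and 8.

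Kcna1 (chr6:126636463-126645801) had 2, 10, 6 and 3 H3K27ac peaks and 4, 6, 5 and 4 H3K9ac peaks. It has no entry in the promoter table, and the strongest H3K9ac peak within 1 kb of either gene end had a −log10 p of 3.53, 11.91, 5.51 and 22.51. Over all members with such a peak at the start the median was 4.97, 4.94, 5.52 and 9.27, values that place a gene within its own list only. Kcna6, with 2, 7, 7 and 4 H3K27ac peaks, had a start-site H3K9ac −log10 p of 8.47, 4.35, 4.48 and 23.83. Kcna4 was thinly marked, with 0, 1, 0 and 1 H3K9ac peaks, both at the start site (−log10 p 4.91 in SNA and 6.21 in DCA). Its start was among the most open of the family, with an ATAC −log10 p of 29.42, 45.74, 14.86 and 22.37. At Kcna3 the only H3K9ac peak was that of the DCA list (−log10 p 15.17), and H3K27ac peaks were found in Lam (9.07) and DCA (5.63).

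The delayed rectifier Kcnb2 had no H3K9ac peak and 1, 0, 1 and 1 H3K27ac peaks over 436.8 kb, yet 35, 28, 41 and 22 ATAC peaks. The Shaw-type Kcnc1, with no H3K9ac peak, had 7, 4, 20 and 0 H3K27me3 peaks. Kcnc4, of the same type, had no acetylation peak.

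The A-type Kcnd2 and Kcnd3 were long and open, with no acetylation peak at Kcnd2 and few at Kcnd3. Kcnd2 had no acetylation peak, 20, 28, 20 and 20 H3K27me3 peaks, and a start-site ATAC peak with a −log10 p of 10.39, 23.34, 11.93 and 18.27. Kcnd3 had 22, 35, 40 and 18 H3K27me3 peaks and 37, 39, 37 and 39 ATAC peaks. Its H3K9ac start-site peak was called in Sham (4.87) and DCA (13.38), and its H3K27ac start-site peak in Sham (7.08), SNA (4.02) and Lam (8.28). Each surgery thus had an acetylation peak at this start. For H3K27me3 at Kcnd3, DCA minus Lam was −22 peaks, and 4 peaks with lists of equal length, so the direction turned round. Kcnd1 had 2, 2, 1 and 2 H3K9ac peaks in a window with 2 other genes. The modifier subunits Kcns3 and Kcnv1 were open and unacetylated, with a start-site ATAC −log10 p for Kcns3 of 13.65, 21.10, 11.23 and 9.0. Kcns1, a modifier linked to pain sensitivity, had a start-site H3K9ac peak in DCA alone (5.04).

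In the Kcnh family, Kcnh8 had 4, 20, 12 and 3 H3K27ac peaks but 4, 4, 3 and 5 H3K9ac peaks, so the marks took different courses over the same gene. Kcnh2, which encodes the channel of the rapid repolarising current of the heart, had 4, 10, 8 and 5 H3K27ac peaks. Kcnh4, with 3 other genes in its window, had 4, 8, 2 and 7 H3K9ac peaks, and Kcnh3 had 1, 2, 1 and 4. The strongest H3K9ac peak of SNA without a counterpart in Sham lay within Kcnh6 (chr11:106033635-106034425, fold 5.13, −log10 p 8.19) and was present in Lam and DCA as well.

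The M-current genes Kcnq3 and Kcnq5 lacked acetylation in most lists. Kcnq3 had no acetylation peak, while its ATAC peaks numbered 32, 27, 28 and 26. Kcnq5 had 19, 8, 11 and 11 ATAC peaks, with Sham above the other lists. Its only H3K9ac peak was at the start site in DCA (8.10). Kcnq1, best known from heart and inner ear, had 12, 10, 4 and 14 H3K9ac peaks and 43, 55, 71 and 25 H3K27me3 peaks.

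Over the 40 voltage-gated pores together, H3K9ac peaks numbered 71, 84, 41 and 108, and 8 of 40 were called higher in DCA (all genes 14.4%). H3K27ac peaks numbered 49, 106, 101 and 60, with 8 called higher in SNA (all genes 12.7%), 4 called lower in DCA (6.53%) and 9 called higher in Lam over Sham (8.47%). The SNA and Lam lists thus stood close together in H3K27ac, and Sham and DCA stood below them. The windows of all genes grouped the same way, with 35762, 62914, 55723 and 38874 H3K27ac peaks.

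**Figure D4:**
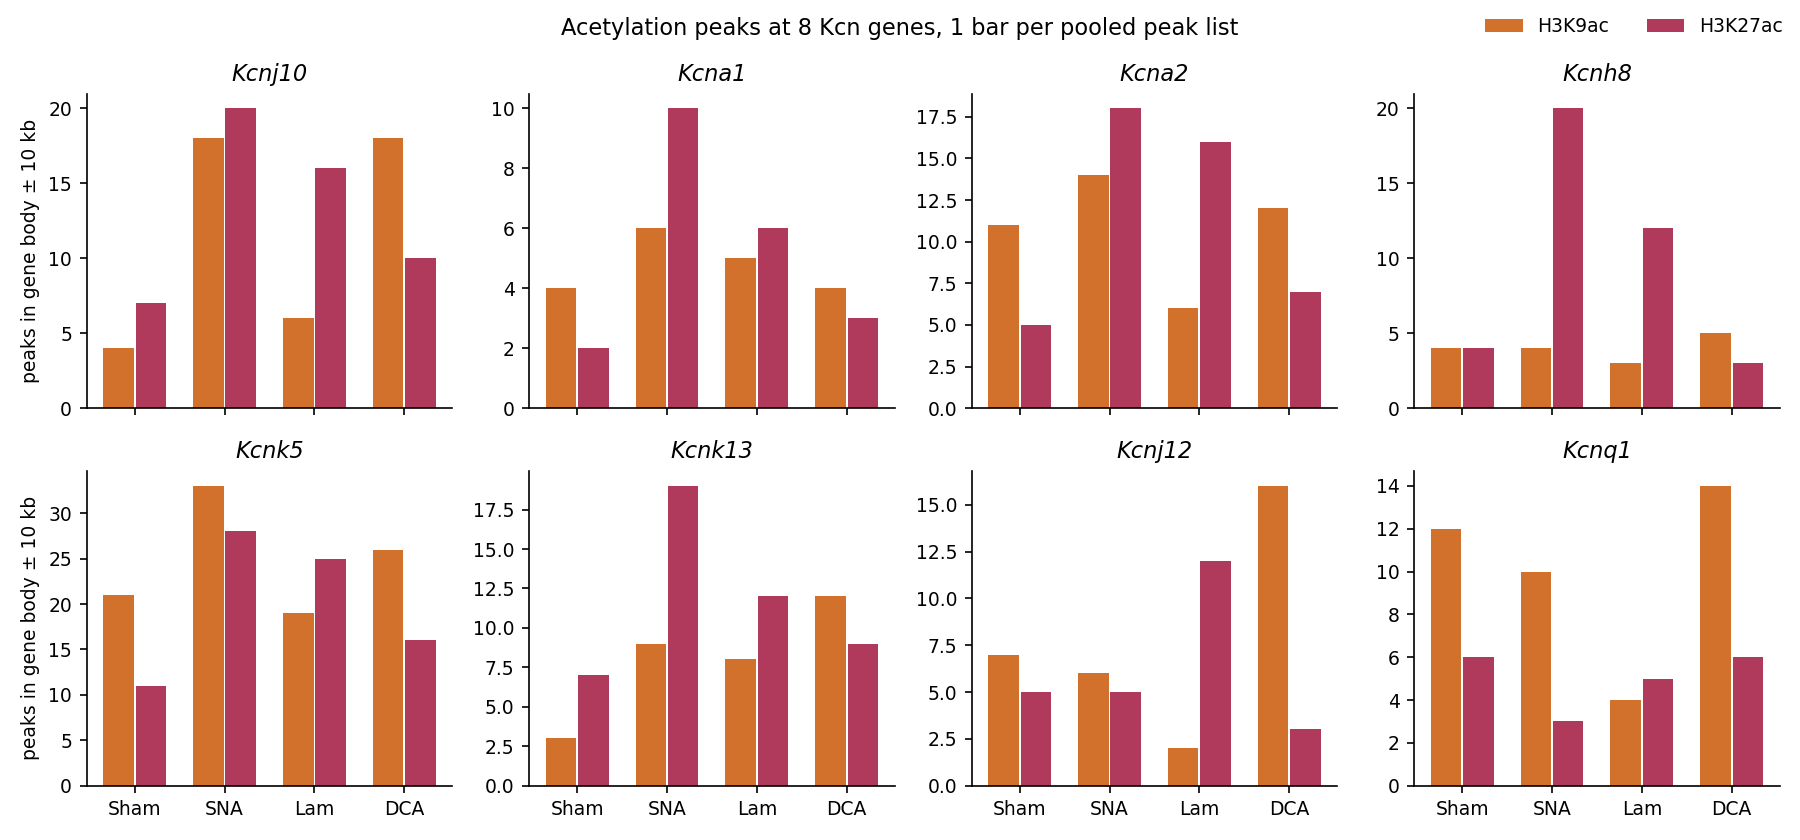
Number of H3K9ac and H3K27ac peaks (vertical axes, each from 0) in the windows of 8 Kcn genes in the 4 pooled lists. H3K27ac is highest in SNA for Kcnj10, Kcna1, Kcna2, Kcnh8, Kcnk5 and Kcnk13 and in Lam for Kcnj12, while H3K9ac at Kcnj12 and Kcnq1 is highest in DCA.

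The accessory genes held 31, 49, 31 and 60 H3K9ac peaks and 34, 43, 41 and 25 H3K27ac peaks. Kcnab1, a cytoplasmic beta subunit that speeds inactivation of Shaker-type channels, had 2, 5, 3 and 10 H3K9ac peaks, 3, 9, 2 and 1 H3K27ac peaks and 15, 30, 15 and 29 ATAC peaks. Both axotomy lists thus held more H3K9ac and ATAC peaks at Kcnab1 than their controls, and they were also the longer lists of both assays. Kcnab1 was called higher in H3K9ac of SNA and of DCA, and neither call was left with lists of equal length. In ATAC it was not called. Kcnab2, another beta subunit, had 5, 2, 3 and 1 H3K27ac peaks, its start site was acetylated in all lists, and its H3K27me3 peaks numbered 10, 0, 16 and 0. Kcnmb4, the neuronal beta subunit of the large-conductance calcium-activated channel, had 1, 1, 3 and 6 H3K9ac peaks, and its start-site peak reached a −log10 p of 4.97, 3.29, 7.08 and 26.08. Kcnmb2, which makes the same channel inactivate, had a single acetylation peak, in H3K27ac of Sham.

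Of the calcium-binding partners of the A-type channels, Kcnip1 had 2, 1, 0 and 1 H3K9ac peaks and 43, 51, 70 and 35 H3K27me3 peaks over a window shared with Kcnmb1. Kcnip4 had no acetylation peak, and Kcnip3 was acetylated at the start with 6, 9, 4 and 7 H3K9ac peaks in its window. Kcnip2 had 2, 3, 3 and 8 H3K9ac peaks, and the strongest H3K27ac peak of DCA without a counterpart in Lam lay within it (chr19:45796829-45797216, fold 8.04), also present in Sham. Kcnrg, named as a regulator of potassium channels, had 3, 8, 5 and 8 H3K9ac and 2, 9, 12 and 2 H3K27ac peaks. Its window also holds Trim13, and its start was not open in any list.

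The calcium- and sodium-activated pores held 14, 18, 16 and 39 H3K9ac peaks, and 4 of 8 were called higher in DCA, where 14.4% of all genes were. Kcnn1, a small-conductance channel of the afterhyperpolarisation, had 8, 8, 7 and 16 H3K9ac peaks, and 2 start sites in the promoter table. At the start at chr8:70857008 the H3K9ac −log10 p was 3.56, 3.6, 7.64 and 13.1, and at that at chr8:70863258 it was 3.48 in Sham, 4.35 in SNA and 18.83 in DCA, with no peak in Lam. The DCA peak over the latter had no overlapping peak in Lam (chr8:70862393-70864203, fold 5.11), the strongest such H3K9ac peak of the family, and overlapped peaks in Sham and SNA. Kcnn4, the intermediate-conductance channel of blood and immune cells, had 0, 2, 3 and 8 H3K9ac peaks and a start-site −log10 p of 4.35 in SNA, 10.08 in Lam and 21.01 in DCA. Macrophage markers had 6, 13, 10 and 14 H3K9ac peaks over 6 genes, of which Adgre1 had no acetylation peak, and their part in the Kcnn4 values was not tested.

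Kcnn3 had 3, 3, 1 and 4 H3K9ac peaks and 29, 25, 41 and 7 H3K27me3 peaks. Kcnma1, the pore of the large-conductance channel, was open along its length with 60, 69, 72 and 72 ATAC peaks and carried 1, 0, 1 and 2 H3K9ac peaks over 712.8 kb. The sodium-activated Kcnt1 had 1, 3, 0 and 3 H3K9ac, 0, 3, 1 and 3 H3K27ac and 9, 4, 12 and 0 H3K27me3 peaks. Kcnt2 had no acetylation peak and a start-site ATAC −log10 p of 29.05, 11.88, 6.10 and 8.62.

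Inward rectifiers held 19, 36, 18 and 56 H3K9ac peaks and 26, 45, 46 and 26 H3K27ac peaks, and Kcnj10 supplied the largest number in SNA for both marks. Kcnj10 (chr1:172341210-172374085) encodes the channel through which satellite glia buffer potassium. It had 4, 18, 6 and 18 H3K9ac peaks covering 2.29, 8.99, 2.65 and 13.12 kb, so both axotomy lists stood well above both controls. It was called higher in SNA and in DCA, and with lists of equal length the SNA call held and the DCA call did not. H3K27ac peaks numbered 7, 20, 16 and 10 and covered 4.28, 12.23, 13.44 and 6.41 kb. SNA and Lam stood above Sham and DCA, as they did in list size. Most of the H3K9ac peaks of SNA and DCA lay inside the gene, while peaks beyond the gene's end, in the flank that also holds Pigm, were present in all lists. ATAC peaks at Kcnj10 numbered 8, 8, 7 and 10. Its partner subunit Kcnj16 had 0, 1, 0 and 1 H3K9ac peaks, each at a start site but not the same one.

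The glial markers had 76, 86, 50 and 86 H3K9ac peaks and 59, 102, 83 and 63 H3K27ac peaks over 8 genes, and all 8 had acetylation peaks, with 209 at Mbp over the 8 lists. In H3K27ac they followed the same order of surgeries as Kcnj10. The sizes of the H3K27ac lists, 43803, 75824, 67311 and 46489 peaks, have that order too. The part of the glial markers in the Kcnj10 values was not tested.

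**Figure D5:**
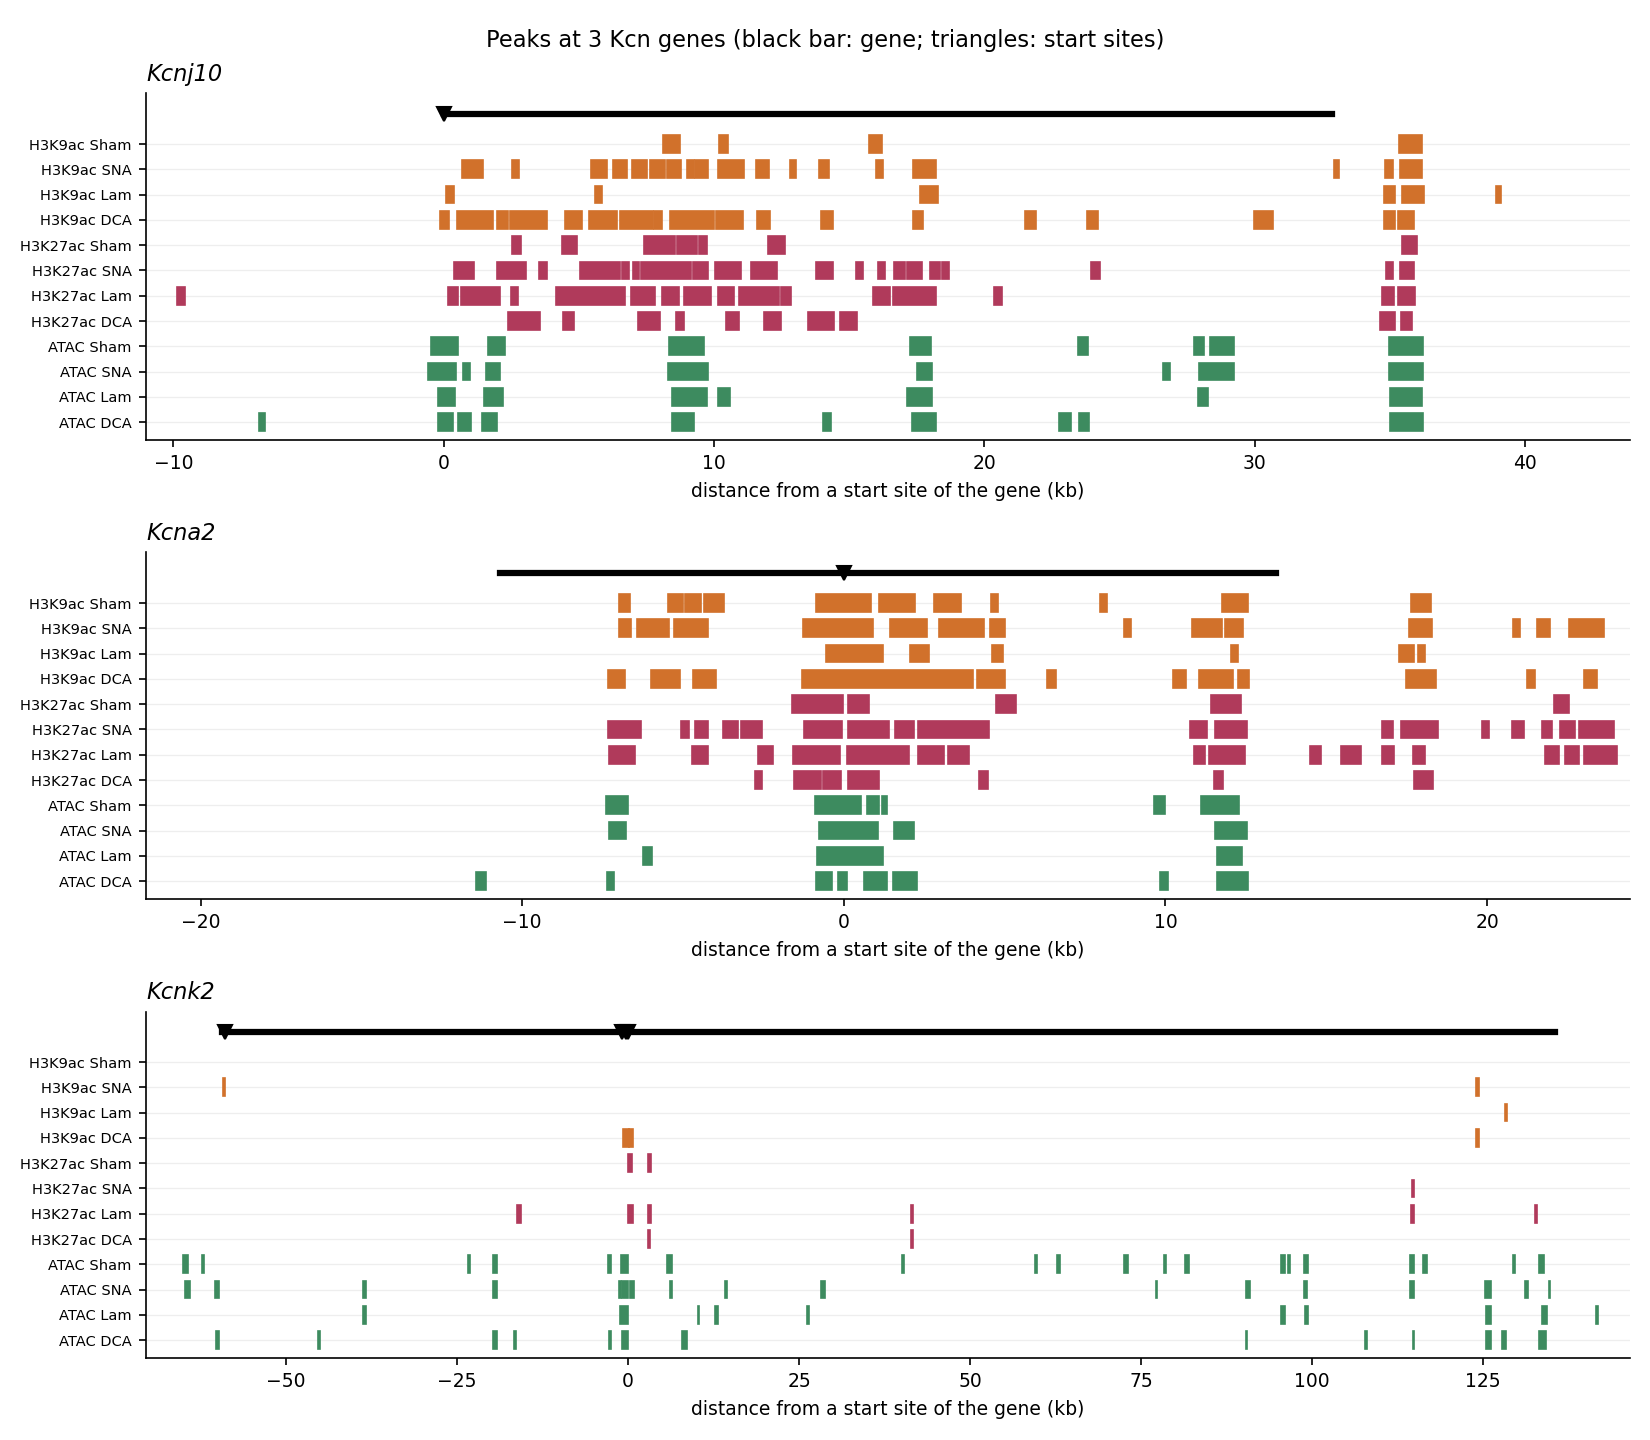
Peaks along Kcnj10, Kcna2 and Kcnk2 by distance from a start site in kb, in gene orientation; black bars are the genes, triangles start sites, and each row is 1 of 12 lists. H3K9ac covers the first part of Kcnj10 in SNA and DCA, and at Kcnk2 the H3K9ac peaks of SNA and DCA lie at different start sites.

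Among the strong rectifiers, Kcnj12 had 7, 6, 2 and 16 H3K9ac peaks and 5, 5, 12 and 3 H3K27ac peaks, so the lists that were highest and lowest for one mark were the reverse for the other. None of these lay at its start site, which was not open in any list. Kcnj4 had 3, 2, 2 and 7 H3K9ac peaks, with a start-site peak in DCA alone (12.67). Kcnj2 had 1, 3, 1 and 2, all lists with a start-site peak, and its start had the highest ATAC −log10 p of the family in each list (31.88, 50.32, 50.43 and 55.84). The G-protein-gated Kcnj3 had no acetylation peak and 12, 8, 4 and 6 ATAC peaks, and Kcnj9 had 1, 6, 5 and 6 ATAC peaks. Kcnj8 and Kcnj11, the pores of the channels that close with ATP, had no H3K9ac peak but 1 each in DCA, at the start site (5.87 for both).

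The tandem-pore channels, which carry leak current, held 51, 87, 46 and 86 H3K9ac peaks and 44, 79, 79 and 57 H3K27ac peaks. Kcnk5 (chr14:20140057-20181782), whose window holds no other gene, led the subfamily with 21, 33, 19 and 26 H3K9ac and 11, 28, 25 and 16 H3K27ac peaks. Kcnk13 had 3, 9, 8 and 12 H3K9ac and 7, 19, 12 and 9 H3K27ac peaks. In its flank, by the neighbouring gene Tdp1, lay the strongest H3K27ac peak of Sham without a counterpart in SNA (chr12:100064656-100065446, −log10 p 148), which Lam and DCA shared.

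Kcnk1 had the strongest H3K27ac peak of any Kcn window in Sham, Lam and DCA, at its start site (chr8:125994776-125996397 in Sham). The fold enrichment was 32.0, 6.75, 20.8 and 32.8 and the −log10 p 171.9, 16.69, 88.27 and 129.83, each relative to its own list. In number its peaks were 4, 9, 6 and 4, with SNA the highest. Kcnk4, a mechanically gated channel of sensory neurons, had a fold at its start of 13.5, 5.42, 18.9 and 9.49, in a window with 4 other genes.

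The other mechanically gated members, Kcnk2 and Kcnk10, had little acetylation, and what they had differed by surgery. Kcnk10 had 1, 0, 1 and 0 H3K27ac peaks, at a start site, with a −log10 p of 18.71 and 22.12 and a fold of 7.41 and 8.09. That of Lam (chr12:98574539-98574865) was the strongest H3K27ac peak of the family in Lam without a counterpart in DCA. At Kcnk2 (chr1:189207930-189402782), H3K27ac was called at a start site in Sham (7.49) and Lam (10.73) and not in SNA or DCA. H3K9ac was called at a start site in SNA and DCA and not in the controls, but at different ones. The DCA peak covered the downstream, CpG-rich start (fold 5.17, −log10 p 17.84) and the SNA peak the upstream start, at −58.92 kb from it (fold 3.31, −log10 p 4.20). Kcnk18 had 1 acetylation peak, in H3K9ac of SNA, and its start-site ATAC peak reached a −log10 p of 8.96, 20.84, 9.05 and 11.38.

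Of 19 genes that work with potassium channels under other symbols, 1 was called higher in H3K9ac and in H3K27ac of SNA (all genes 6.54% and 12.7%) and 0 lower (0.292% and 1.04%). This was Lgi1, which encodes a secreted protein that regulates Shaker-type channels. It had 4, 15, 8 and 12 H3K9ac peaks and 7, 17, 15 and 7 H3K27ac peaks. The lists with more peaks were those with more at Kcnj10, and they were also the longer lists of each mark. Cntnap2, which anchors Shaker-type channels beside the nodes, had 139, 94, 118 and 125 ATAC peaks, and Dpp6, a partner of the A-type channels, 154, 200, 181 and 170, and neither was called. In DCA, the pacemaker channel gene Hcn2 and the scaffold gene Akap5 were called higher in H3K9ac, 2 of the 19 (all genes 14.4%), and 0 were called lower (0.274%). In H3K27ac, 0 were called higher (0.402%) and 2 lower (6.53%), Lgi1 and Hcn3. The counts are too small to set the 19 apart from all genes. Rest, the repressor of many neuronal genes, had 1 H3K9ac peak in each list.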

How the data were processed

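Per the labels' protocols, the 60 samples (24 ChIP, 24 inputs, 12 ATAC) gave 1 pooled peak list per assay and surgery. The build is mm10 (GRCm38), per the submitters' processing notes, while the aligner, peak caller and settings are not given in the sources used here. Each deposited peak carries a fold enrichment, a linear ratio over the authors' background, and −log10 p and −log10 q values of the authors' caller. These were used to rank or filter peaks within a list. Where they are printed for several lists, each describes its own list and none was compared between lists, since read depth is unknown. Where a gene has several start sites, the strongest peak at any of them was taken unless a start is named. The deposited files hold no replicate values, so p-values between surgeries were not computed.

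Repeated ATAC intervals were collapsed to the strongest summit, and peaks were assigned to a window by at least 1 bp of overlap with Python 3.11.15 (numpy 2.4.6, pandas 2.3.3, scipy 1.17.1, matplotlib 3.10.9), tested on simulated data. Intervals of 95% come from peak counts and cover counting error only. Named are the up to 3 members called higher and lower with the largest difference per assay and injury, channels with a known role in sensory neurons or glia, the strongest unmatched peaks, and each subfamily's member with the most peaks. Some genes that this rule names are counted in the totals but not reported by name here. Other genes named were chosen after their values were seen. Members, lists and tests were chosen with earlier results of these data known.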

Additional observations from a re-analysis of the deposited data

Results flagged for a closer look

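The share of H3K9ac peaks in Kcn windows stood higher in DCA than in Lam, with a log2 ratio of 0.38, while in SNA it stood no higher than in Sham, with a ratio of −0.01 and an interval from −0.28 to 0.26. The SNA interval spans 0, so no direction can be read from it, and the difference between the injuries was not tested, because each surgery has 1 pooled list. The Lam share was the lowest of the 4 H3K9ac lists, at 0.300%, against 0.370% in Sham.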

How the results depend on the processing

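No paired analysis was possible because each list pools the replicates of a surgery, and for the same reason no replicate could be left out. Equal list sizes and covered length were chosen after the data were seen. For a call by covered length, the kb of a window under peaks plus 1 had to be at least 2 times that in the other list. The difference had to be at least 1 kb. Calls under both of these settings were counted for Kcn genes alone, so no share of all genes stands beside them. Of the 107 alternative values of the log2 share ratios, 95 stayed within the counting interval of the reported value. The exceptions at −log10 q of at least 5 were H3K9ac in DCA over Lam (1.08) and Lam over Sham (−0.62) and ATAC in DCA over Lam (0.19). At q of at most 0.05, H3K27me3 gave 1.3 in SNA over Sham and 1.55 in Lam over Sham. At gene ends within 1 kb, H3K27me3 gave −0.85 (SNA over Sham), −1.08 (DCA over Lam) and −0.19 (Lam over Sham), and ATAC 0.15 (SNA over Sham) and 0.34 (Lam over Sham). By covered length H3K27me3 gave −0.37 in SNA over Sham and −0.47 in DCA over Lam. With lists of equal length, members called higher and lower were 1 and 2 (H3K9ac SNA), 3 and 5 (H3K27ac SNA), 2 and 4 (H3K27ac DCA), 3 and 4 (H3K27ac Lam over Sham), 8 and 27 (H3K27me3 DCA) and 4 and 6 (ATAC DCA), and 4 were higher in H3K9ac of DCA. By covered length, 36 were called higher in H3K9ac of DCA, 1 in H3K9ac of Lam over Sham, 9 higher and 3 lower in H3K27ac of SNA, 13 lower in H3K27ac of DCA, 30 lower in H3K27me3 of SNA and 7 of Lam over Sham, 0 lower in ATAC of SNA, 1 lower in ATAC of DCA and 1 higher in ATAC of Lam over Sham. Equal lists left 33 members with a start-site H3K9ac peak in DCA and 39 with H3K27me3 in Sham. Within 500 bp 21 had H3K27me3 in SNA, and at q of at most 0.05 0 had one in any H3K27me3 list. The H3K27me3 difference at Kcnd3 between DCA and Lam turned to 4 peaks with equal lists. The cause of these differences was not tested, other than fewer peaks where lists were cut. For H3K27me3, −log10 q of at least 5 left too few peaks for a ratio, as did q of at most 0.05 for DCA over Lam. Of 1104 single-gene values, 1011 kept the call or stayed uncalled, 70 lost the call, 22 gained it and 1 called value turned round. Direction was checked only for genes called in the reported setting, and the 1011 include genes that were not called. The files give no read depth, so a missing peak does not show that a mark is absent.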
